A study of Mus musculus with 6 samples.

Results

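The clock output factors described here are 7 genes for transcription regulators that sit downstream of, or feed back on, the circadian clock: Dbp, Tef, Hlf, Nfil3, Bhlhe40, Bhlhe41 and Ciart. They were chosen by gene symbol, and every probe that the platform annotation gives to one of them was taken: 8 probes for 6 of the genes, out of 46611 probes with a usable signal in all. Nfil3 was not analysed here, because none of the annotated probes carried its symbol. RNA came from the quadriceps femoris, a thigh muscle, of mice with the RORalpha1delDE transgene (3 arrays) and of wild-type mice (3 arrays), all on a C57BL/6 background. The transgene is a human RORalpha1 without its E region and with a shortened hinge, and the skeletal muscle promoter of human alpha-actin drives it, so the tissue's other cell types are not meant to carry it. All mice were fed a diet with 4.6% fat, kept under a 12 h light cycle, fasted overnight and killed at 9 in the morning, so a single time of day was sampled and no rhythm can be read from these arrays. No age or sex of the mice is stated in the sources used here.

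Dbp, Tef and Hlf encode the PAR bZIP activators, which bind D-box elements as dimers, and Nfil3 encodes a related bZIP repressor of the same elements. Bhlhe40 and Bhlhe41 encode DEC1 and DEC2, basic helix-loop-helix repressors that bind E-boxes and so oppose CLOCK and BMAL1, the activators of the clock. Ciart encodes CHRONO, a repressor that binds BMAL1. The genes are themselves clock driven: Dbp is a classical E-box target of CLOCK and BMAL1, while ROR receptors and the opposing REV-ERB repressors act on Arntl, which encodes BMAL1, and on Nfil3. A muscle that carries an altered RORalpha is therefore a setting in which these outputs are of interest.

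The E-box is the element through which CLOCK, BMAL1 and the DEC factors act, and the stretches below are shown because they hold every CACGTG found in the windows of members with a probe. Sequences are from RefSeq on GRCm38.p6, 250 bases before the annotated start of each gene were searched on both strands, and 7 windows were given for 6 members, with none for Bhlhe40. CACGTG stood in 4 windows of 3 member genes, and in 6.02% of all 32851 windows. The lines run 5′ to 3′ on the gene's strand, and capitals mark CACGTG. The stretch of Ciart lies at chr3:95882247-95882364 on the minus strand, that of Bhlhe41 at chr6:145865548-145865593 on the minus strand, and those before the upstream and downstream starts of Tef at chr15:81802526-81802571 and chr15:81811256-81811301 on the plus strand.
Ciart: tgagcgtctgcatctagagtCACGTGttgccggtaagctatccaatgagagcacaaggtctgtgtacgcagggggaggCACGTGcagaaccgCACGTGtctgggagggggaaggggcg
Bhlhe41: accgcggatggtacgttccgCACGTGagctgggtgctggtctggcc
Tef, upstream start: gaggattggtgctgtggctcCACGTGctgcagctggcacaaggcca
Tef, downstream start: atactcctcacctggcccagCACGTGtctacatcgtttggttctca

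The window of Ciart held 3 copies and each of the others shown held 1. No CACGTG was found in the windows of Dbp, Hlf and Nfil3. The D-box (TTATGTAA or TTACGTAA) was in 0 of the 7 windows, against 0.931% of all windows, and the ROR response element consensus also in 0, against 0.332%. The half-site AGGTCA was in 1 window, that of Nfil3, against 14.0% of all windows. These matches are descriptions of the letters in short windows and say nothing of which factor was bound in this muscle.

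Signals are bead-averaged intensities, and levels are log2 values after background correction and quantile normalisation. A probe was called detected on an array at a detection p under 0.05, and kept for testing if detected on at least 3 of the 6 arrays. Of the 8 member probes 6 were kept, and they cover Dbp, Tef, Bhlhe40 and Ciart. Arrays 1 and 2 of each group were averaged and counted as 1 sample, because differences between them were not shared by probes of the same gene (r = 0.0319 for the transgenic pair and 0.034 for the wild-type pair across 524 genes), whereas array 3 differed from both in each group (r from 0.7025 to 0.7642). This leaves 2 samples against 2, and the labels do not say whether they are separate mice, so p-values measure only the spread between these samples. The 6 arrays lay on 1 chip with the groups at different positions, so position and genotype cannot be told apart. Array medians of the signal ran from 154.5 to 174.9, and between 13979 and 14887 probes were detected per array. Acta1, the skeletal muscle actin, was at 15.65 ± 0.06 in transgenic and 15.60 ± 0.02 in wild-type samples (SD, n = 2 each), and Rora itself at 12.28 ± 0.35 and 12.08 ± 0.08. The sources used here do not say whether a Rora probe can read the human transgene.

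None of the 6 kept member probes passed an adjusted p of 0.05 (limma, Benjamini-Hochberg over all 14420 kept probes). Of all kept probes 0.00693% did, a single one, that of Ucp1, at a lower level in the transgenic samples. At an unadjusted p under 0.05, 1 of the 6 member probes, that of Bhlhe40, was higher in transgenic muscle, against 3.49% of all kept probes in that direction. With 2 samples against 2 the smallest p of an exact permutation test is 0.333, so the fit across all probes is the only test used here. Fitted differences below are transgenic minus wild type on the log2 scale, with the SE of the fit.

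**Figure D1:**
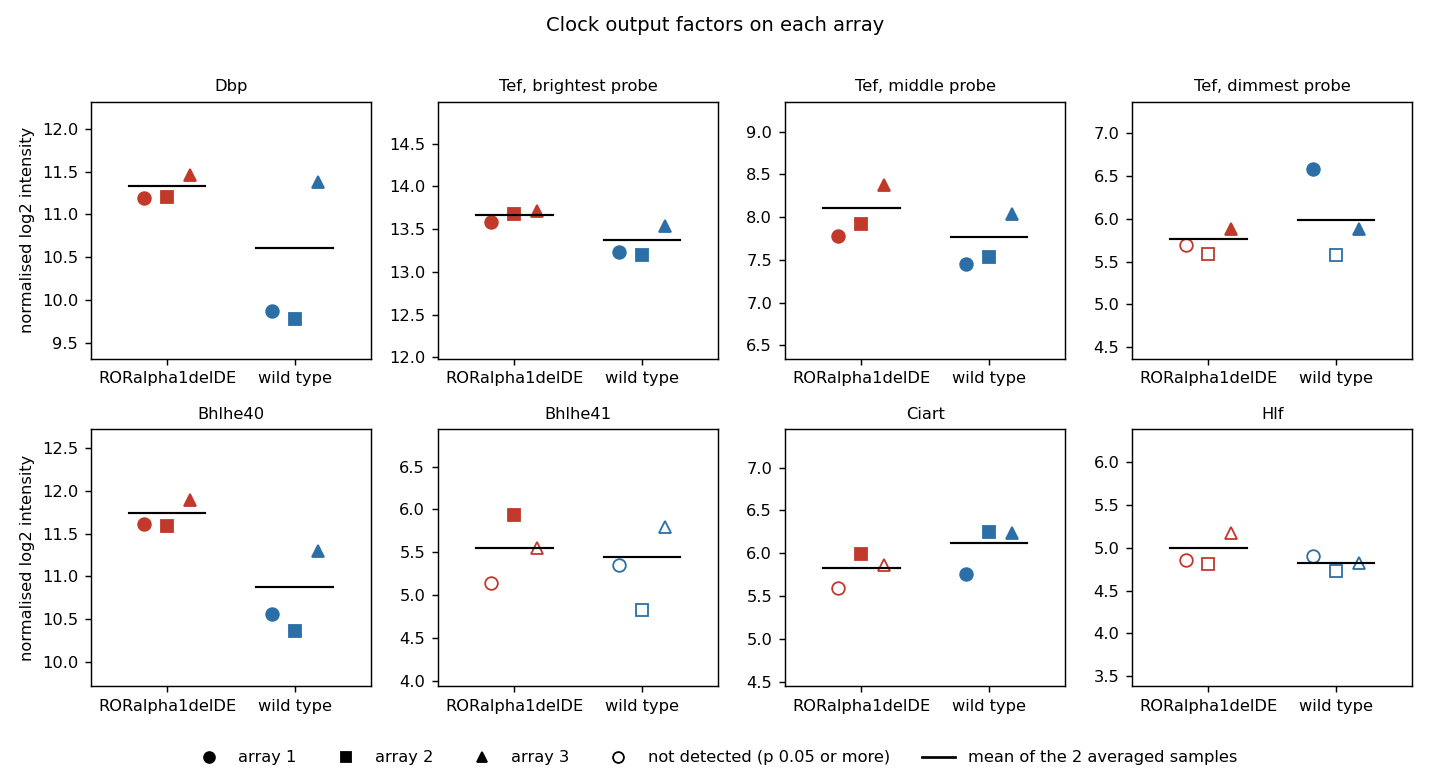
Normalised log2 intensity (y axis) of the 8 member probes on each array, RORalpha1delDE in red on the left and wild type in blue on the right of each panel; symbols mark arrays 1 to 3, open symbols arrays on which the probe was not detected, and lines the mean of the 2 averaged samples. Bhlhe40 and the brightest Tef probe have all 3 transgenic arrays above all 3 wild-type arrays, and for Dbp wild-type array 3 lies among the transgenic arrays. Each y axis spans 3 log2 units.

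Among the PAR bZIP activators, Dbp gave signals of 2436.6, 2420.4 and 2707.9 on transgenic arrays 1, 2 and 3, and 1231.7, 1124.3 and 2686.8 on wild-type arrays 1, 2 and 3. The transgenic arrays lay close together, and wild-type array 3 lay among them, while wild-type arrays 1 and 2 stood lower. The level of Dbp was 11.33 ± 0.19 in transgenic and 10.60 ± 1.10 in wild-type samples (SD, n = 2 each). The difference was 0.73 ± 0.48 (adjusted p = 0.737), less than the spread between the wild-type samples. Within the transgenic group, array 3 was above arrays 1 and 2 by 0.27 log2 units, and within the wild type by 1.55. Only 0.146% of kept probes had a wild-type gap in that direction at least as large as that of Dbp. Without the averaged wild-type arrays 1 and 2 the difference of Dbp was -0.049, and without wild-type array 3 it was 1.50, so the sample chosen to represent the wild type sets both its size and its sign.

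Tef, which encodes thyrotroph embryonic factor, was read by 3 probes. The brightest gave 12384.5, 12964.9 and 12092.7 on the transgenic arrays, against 10769.4, 10211.5 and 11710.8 on the wild-type arrays. After normalisation the groups did not overlap on this probe, with all transgenic arrays above all wild-type arrays. Its difference was 0.30 ± 0.19 (adjusted p = 0.734), a 1.23-fold difference with levels of 13.67 ± 0.06 in transgenic and 13.37 ± 0.23 in wild-type samples (SD, n = 2 each). It was 0.46 without wild-type array 3 and 0.14 without wild-type arrays 1 and 2.

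The second Tef probe, annotated to the same RefSeq transcript as the brightest, gave 356.4, 369.7 and 429.9 on transgenic arrays against 349.3, 354.3 and 391.0 on wild-type arrays. Here the groups overlapped, and array 3 was the highest of each group. The difference was 0.34 ± 0.28 (adjusted p = 0.768). It was 0.080 without transgenic array 3, 0.075 without wild-type arrays 1 and 2 and 0.61 without wild-type array 3. The third probe, annotated to another Tef transcript, gave 191.3, 182.7 and 184.3 against 257.6, 190.2 and 200.0, and was detected on 1 of 3 transgenic and 2 of 3 wild-type arrays. Its difference was -0.22 ± 0.19 (adjusted p = 0.783), opposite in sign to the other Tef probes, and 0.030 without wild-type array 1. The files do not place the probes along the transcripts, so whether the probes read different Tef isoforms was not tested.

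Hlf, hepatic leukemia factor, was detected on none of the 6 arrays. Its signals were 138.0, 130.8 and 148.7 on transgenic arrays and 146.8, 124.9 and 133.0 on wild-type arrays. Both groups were not well above background, so no fold is given.

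The DEC gene Bhlhe40 gave the largest difference among the kept members. Bhlhe40 had signals of 3182.3, 3143.1 and 3552.3 on transgenic arrays 1, 2 and 3, against 1884.7, 1597.4 and 2561.8 on wild-type arrays 1, 2 and 3. All transgenic arrays were above all wild-type arrays, and wild-type array 3 was the nearest to them. The level was 11.74 ± 0.20 in transgenic and 10.88 ± 0.60 in wild-type samples (SD, n = 2 each), a difference of 0.86 ± 0.31 or 1.82-fold (adjusted p = 0.646). The call did not depend on how the arrays were counted: with the 6 arrays taken as separate samples the difference was 0.96 ± 0.24 (adjusted p = 0.16), where 0.381% of all kept probes passed an adjusted p of 0.05. Without wild-type arrays 1 and 2 the difference was 0.44 ± 0.23, and without wild-type array 3 it was 1.28 ± 0.23. A difference at least as large and in the same direction was seen for 0.534% of kept probes.

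Absence of overlap between the arrays held for 2 of the 6 kept member probes, those of Bhlhe40 and the brightest of Tef, both higher in the transgenic group. Over all kept probes 12.1% had every transgenic array above every wild-type array, and 9.76% had every transgenic array below.

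Bhlhe41, the other DEC gene, gave 161.6, 198.3 and 169.6 on transgenic arrays against 180.2, 135.5 and 195.7 on wild-type arrays. It was detected on 1 transgenic array, the second, and on no wild-type array. The wild-type level is therefore only a bound, and since the transgenic mean of 5.55 lay below that bound of 5.80, no fold is given.

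Ciart gave signals near background: 186.5, 200.8 and 183.7 on transgenic arrays, detected on 1 of 3, and 204.3, 230.9 and 216.7 on wild-type arrays, detected on 3 of 3. After normalisation the groups overlapped, with transgenic arrays 2 and 3 at 5.99 and 5.87 above wild-type array 1 at 5.75. The difference was -0.29 ± 0.18 (adjusted p = 0.731), with levels of 5.83 ± 0.05 in transgenic and 6.12 ± 0.16 in wild-type samples (SD, n = 2 each). Ciart was the only kept member whose brightest probe had a lower mean in transgenic muscle. The wild-type arrays alone met the detection filter for it, so its sign is not independent of its being kept. Background handling sets the size of this difference: it was -0.087 with the deposited log2 values and -0.10 without background correction.

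**Figure D2:**
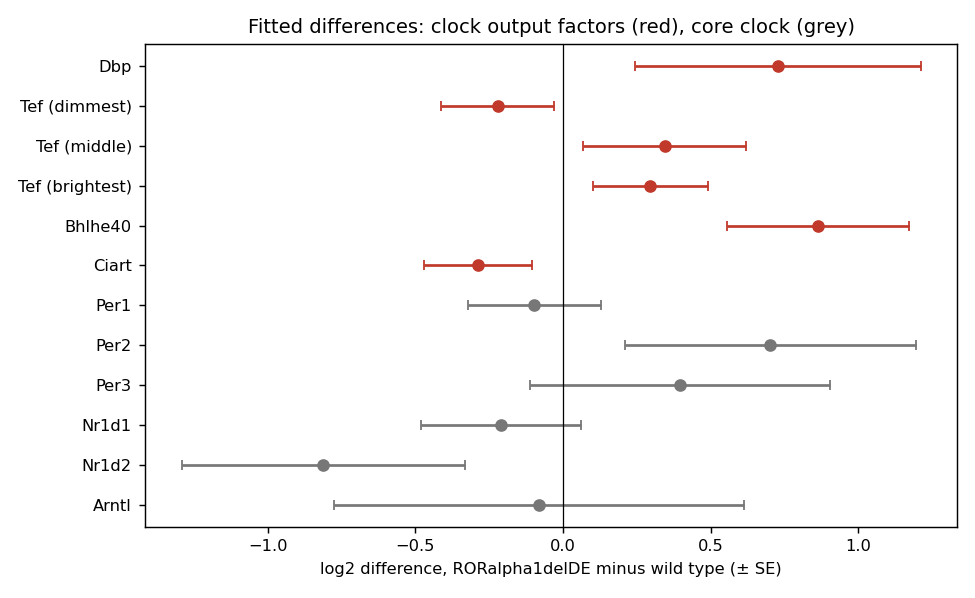
Fitted log2 differences, RORalpha1delDE minus wild type (x axis, bars are the SE of the limma fit), for the 6 kept member probes in red and for 6 core clock genes in grey. Bhlhe40 at 0.86 and Dbp at 0.73 lie furthest to the right among the members, and the bars of Per1, Per3, Nr1d1 and Arntl cross 0.

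The core clock genes that act on the members were read in the same samples. Of 17 core clock genes listed, 12 had a kept probe. None passed the threshold, 5 were above 0 and 7 below, and their median was -0.088, against 0.018 over all kept probes. Csnk1e, a kinase of PER proteins, differed by -0.50 ± 0.18 (adjusted p = 0.646) with all transgenic arrays below all wild-type arrays. Rorb, a receptor of the ROR family, was detected on 2 of 3 arrays in each group and differed by -0.37 ± 0.20. Per1, whose product represses CLOCK and BMAL1, differed by -0.096 ± 0.22, and Nr1d1, which encodes REV-ERBalpha, by -0.21 ± 0.27.

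For 4 of the 12 kept core clock genes, Per2, Per3, Nr1d2 and Arntl, the gap within the wild type was larger than that of Dbp. For the other 8 the gap between wild-type array 3 and wild-type arrays 1 and 2 was smaller, from -0.64 for Clock to 0.051 for Rorb, and it was -0.50 for both Per1 and Nr1d1. Per2, a repressor of CLOCK and BMAL1, had levels of 9.88 for transgenic arrays 1 and 2 and 10.04 for transgenic array 3, against 8.45 in wild-type arrays 1 and 2 and 10.06 in wild-type array 3. Per3, named after its values were seen, was at 9.29 and 9.50 in the transgenic samples, against 8.17 and 9.82 in the wild-type samples in the same order. Thus wild-type array 3 was at or above the transgenic samples for Per2 and Per3, and wild-type arrays 1 and 2 were below them.

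Nr1d2, which encodes REV-ERBbeta, ran the other way in the wild type, at 10.10 and 10.15 in the transgenic samples against 11.72 in wild-type arrays 1 and 2 and 10.16 in wild-type array 3. Arntl was at 9.23 and 8.98 in the transgenic samples, against 10.35 and 8.02 in the wild-type samples, so both transgenic samples lay between the wild-type ones. The wild-type gap, array 3 minus arrays 1 and 2, was -2.33 for Arntl, -1.56 for Nr1d2, 1.61 for Per2 and 1.66 for Per3, beside 1.55 for Dbp, 0.84 for Bhlhe40 and 0.32 for the brightest Tef probe. A gap of either sign at least as large as that of Dbp was found for 0.499% of kept probes. Group differences were 0.70 ± 0.49 for Per2, -0.81 ± 0.48 for Nr1d2, 0.40 ± 0.51 for Per3 and -0.080 ± 0.69 for Arntl. Without wild-type arrays 1 and 2 the differences were -0.10 for Per2, -0.028 for Nr1d2, -0.43 for Per3 and 1.08 for Arntl, and without wild-type array 3 they were 1.51, -1.59, 1.23 and -1.24 in the same order.

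**Figure D3:**
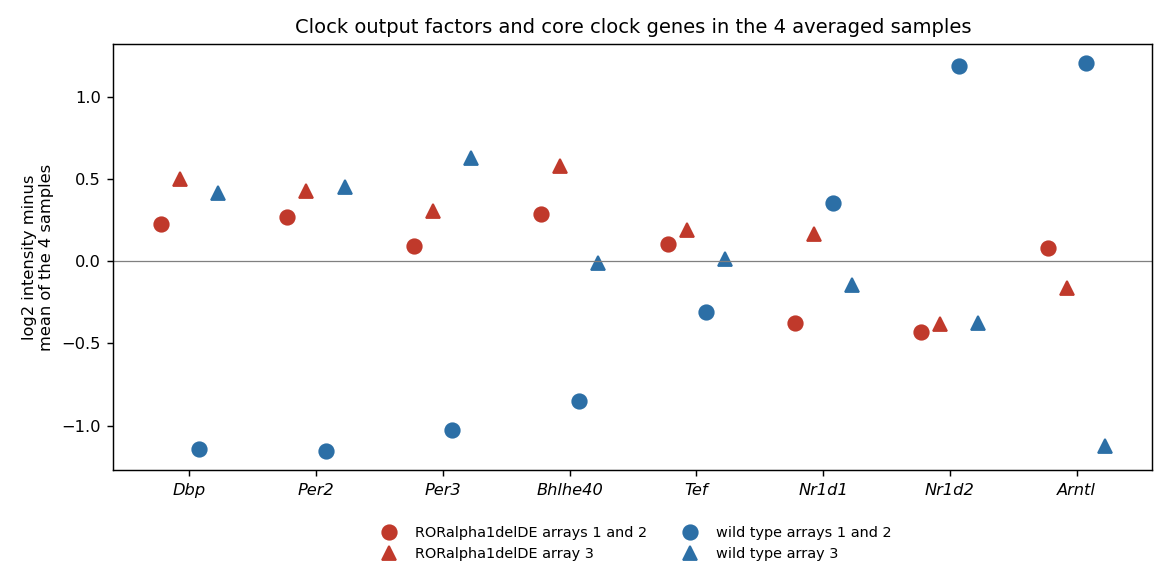
Log2 intensity minus the mean of the 4 averaged samples (y axis) for 3 clock output factors and 5 core clock genes; RORalpha1delDE samples are red, wild-type samples blue, circles are arrays 1 and 2 averaged and triangles array 3. Wild-type arrays 1 and 2 lie below the other samples for Dbp, Per2, Per3, Bhlhe40 and Tef and above them for Nr1d1, Nr1d2 and Arntl. Wild-type array 3 lies near the transgenic samples for Dbp, Per2 and Nr1d2 and between them for Nr1d1. It lies below both for Bhlhe40, Tef and Arntl and above both for Per3.

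Genes that PAR bZIP factors are known to act on, mostly from mouse liver, included none past the threshold. Of 13 listed, 9 had a kept probe, 3 were above 0 and 6 below, with a median of -0.21, the value of Nr1d1. The kept genes other than Pdxk, Alas1 and Acot2 are core clock genes already counted above, so the lists are not independent. Acot2, a mitochondrial acyl-CoA thioesterase, differed by -0.52 ± 0.21 (adjusted p = 0.647). Among 12 genes of clock output in muscle, 9 were kept and 0 passed, with 6 above 0 and a median of 0.17. Noct, a phosphatase also known as nocturnin, was at 11.56 ± 0.27 in transgenic and 11.03 ± 0.36 in wild-type samples, and Usp2, a deubiquitinase, at 12.39 ± 0.26 and 12.09 ± 0.15 (SD, n = 2 each). Fkbp5 and Klf9, both induced by glucocorticoids, differed by -0.59 ± 0.52 and -0.23 ± 0.21. Fkbp5 was at 10.57 and 10.24 in the transgenic samples, against 11.83 in wild-type arrays 1 and 2 and 10.16 in wild-type array 3. Its wild-type samples were split as for Dbp but in the opposite direction, with arrays 1 and 2 above array 3.

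The relatives of the members by protein family were compared next. Of 11 C/EBP and related bZIP genes, 8 were kept and 0 passed the adjusted threshold, 2 were above 0 and 6 below, with a median of -0.39. At an unadjusted p under 0.05 in either direction, 4 of these 8 passed, all lower in transgenic muscle, against 7.66% of all kept probes. They were Cebpd, a C/EBP induced by glucocorticoids, at -1.003 ± 0.21 (adjusted p = 0.471), Cebpa, a C/EBP of fat and liver, at -0.87 ± 0.25, Atf5, a stress-response factor, at -0.73 ± 0.20, and Cebpg, a dimer partner of other bZIP proteins, at -0.46 ± 0.18. Among 13 genes of HES, HEY and ID proteins and their partners, 8 were kept, 4 were above 0, and 0 passed. Hes1, the Notch-responsive repressor and a relative of the DEC factors, was at 9.62, 9.72 and 9.54 on transgenic arrays, against 8.59, 8.70 and 9.11 on wild-type arrays. Its groups did not overlap, and the difference was 0.73 ± 0.22 (adjusted p = 0.623).

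Bhlhe40 is also known as a gene induced by low oxygen. Of 13 hypoxia-induced genes listed, 11 were kept, 6 were above 0 and 5 below, 0 passed, and the median was 0.0025. Vegfa, the vascular growth factor, differed by 0.42 ± 0.26, Egln3, an oxygen-sensing hydroxylase, by -1.10 ± 0.51, and Ddit4, an inhibitor of mTORC1, by -1.07 ± 0.95. Egln3 was -0.28 without transgenic array 3 and -1.92 without transgenic arrays 1 and 2, and Vegfa 0.75 without wild-type array 3 and 0.079 without wild-type arrays 1 and 2. Ddit4 was at 9.76 and 8.53 in the transgenic samples and 11.73 and 8.70 in the wild-type samples.

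The 3 genes whose pattern over the 6 arrays was closest to that of Bhlhe40, by the root mean square difference of log2 values centred on each probe's mean, were Pdp1 at 0.082, Lrrc38 at 0.12 and Panx1 at 0.13 log2 units. Pdp1 encodes a phosphatase that activates pyruvate dehydrogenase, Lrrc38 an auxiliary subunit of potassium channels, and Panx1 a channel that releases ATP. Pdp1 was at 9.91 and 10.29 in the transgenic samples and 8.81 and 9.63 in the wild-type samples, a difference of 0.88 ± 0.31 (adjusted p = 0.646). Since the likeness was computed on these same arrays it is a description of them.

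In bulk muscle, fewer cells of a type and less RNA per cell cannot be told apart. Means of some markers of other cell types differed between the groups, but only Ucp1 passed the adjusted threshold, and Bhlhe40 did not. All 6 kept adipocyte markers of 11 listed were below 0. Their median was -1.29, or -2.23 without transgenic array 3 and -0.73 without transgenic arrays 1 and 2. Their summed signal ran from 2105 to 4038 on transgenic and 11875 to 16005 on wild-type arrays. On single arrays Adipoq and Lipe overlapped between the groups, and the other kept adipocyte markers did not. Ucp1, which uncouples respiration in brown adipocytes, and Pck1 were each detected on 0 of 3 transgenic and 3 of 3 wild-type arrays. Both were kept only through the group where they are high, so their sign adds nothing to the count of 6 below 0. The median of -1.29 includes them. Cidea, a lipid droplet protein, was at 7.29 ± 0.04 in transgenic and 11.33 ± 0.70 in wild-type samples (SD, n = 2 each). All 8 kept macrophage and immune markers of 12 listed were above 0 (median 0.50, but 0.047 without transgenic array 3), with summed signals of 3037 to 4262 on transgenic and 3003 to 3527 on wild-type arrays. Of these 8, 0 passed the adjusted threshold. Adgre1 and C1qc, markers of macrophages, differed by 0.87 ± 0.31 and 0.97 ± 0.37 (limma adjusted p = 0.647 for each). Without transgenic array 3 these were 0.46 and 0.56, and C1qc was 0.57 without wild-type array 3. Of 10 lymphocyte markers 0 had a kept probe. The part of these cells in the values of Bhlhe40 and Dbp was not tested.

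Most slow-fibre markers set transgenic array 3 apart. Summed signals of the 11 kept were 19202 to 137406 on transgenic and 98195 to 121080 on wild-type arrays. All 11 were below 0 with a median of -1.22, and 0 passed the adjusted threshold. That median was as high as 0.35 when a single array was left out. Ankrd2 was lower in both transgenic samples, at 11.95 for arrays 1 and 2 and 11.05 for array 3. It was at 12.73 and 12.72 in the wild-type samples, a difference of -1.22 ± 0.31 (limma adjusted p = 0.579). Casq2 and Csrp3 did not show the drop on transgenic array 3. They were at 7.26 and 12.51 for averaged transgenic arrays 1 and 2, and at 7.15 and 12.83 for transgenic array 3. The slow-fibre troponin gene Tnni1 had levels of 11.01 for the averaged transgenic arrays 1 and 2 and 5.40 for transgenic array 3, against 10.67 and 10.83 in the wild-type samples. In the same transgenic samples Dbp was at 11.20 and 11.47, Bhlhe40 at 11.60 and 11.89, the brightest Tef probe at 13.63 and 13.71 and the second Tef probe at 7.84 and 8.37. Without transgenic array 3 the difference of Bhlhe40 was 0.72 ± 0.38, that of Dbp 0.59 ± 0.56 and that of Tef 0.26 ± 0.29. Medians of the fibroblast, endothelial, Schwann cell, smooth muscle, erythroid, fast-fibre and skeletal muscle markers were 0.36, 0.0019, 0.039, 0.089, 0.033, 0.055 and 0.047, with 0 members past the threshold.

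**Figure D4:**
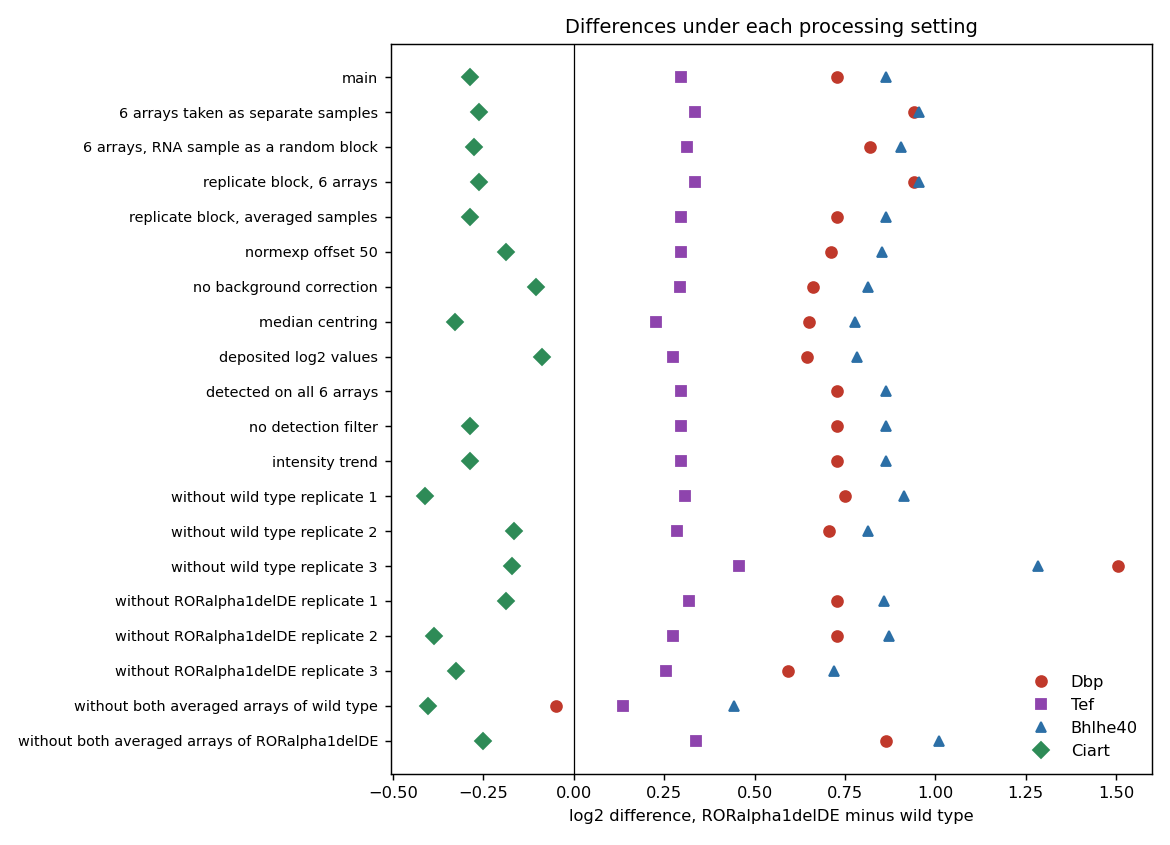
Log2 difference, RORalpha1delDE minus wild type (x axis), of the brightest probes of Dbp, Tef, Bhlhe40 and Ciart under the main setting and each alternative (y axis). Bhlhe40 and Tef stay above 0 and Ciart below 0 in the settings shown, with no Ciart value for probes detected on all 6 arrays, and Dbp runs from -0.049 without wild-type arrays 1 and 2 to 1.50 without wild-type array 3.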

How the data were processed

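Per the file headers and the submitters' processing notes, the authors deposited bead-averaged intensities exported with BeadStudio 2.3.41, each with a detection value. These deposited values rise with the intensity and were read as 1 minus the detection p-value. The authors' second table holds deposited log2 values centred per probe, with array medians from -0.023 to 0.014. Its scale was found by setting it against the intensities. The sources used here do not state the background setting.

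Intensity rows were displaced against probe identifiers by 0 to 21 rows and were returned by finding the row whose array differences equalled those of the log2 values to within 0.002, which placed 46611 of 46632 probes. Intensity then followed the detection value on every array (Spearman's rho at least 0.99996 below a detection value of 1). Symbols came from the platform annotation (29976 probes with 1 symbol, 10 with several, 16625 with none), and an Entrez match to RefSeq genes of GRCm38.p6 covered 29921 and changed 0.

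Intensities were corrected by normexp with inferred negative controls (offset 16), quantile normalised and taken to log2, and compared with limma 3.58.1 in R 4.3.3 (lmFit, eBayes, two-sided, Benjamini-Hochberg over 14420 kept probes; Python 3.11.15 for matching). The small number of arrays limits precision. The brightest kept probe stood for a gene. The fit was tested on simulated data.

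Members, lists and the averaging of arrays 1 and 2 were chosen with earlier results of these data known. Named genes were all member probes, the clock genes Arntl, Per1, Per2, Nr1d1 and Nr1d2, with Rora and Acta1, up to 4 genes per list with the smallest p, and the 3 nearest patterns to the member with the largest difference. Named outside this rule were Per3, Clock, Pdxk, Alas1, Adipoq, Lipe and Csrp3. Same-numbered transgenic and wild-type arrays deviated from their group means with correlations of 0, 0.023 and 0.062, so the numbers were not taken as pairs.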

Additional observations from a re-analysis of the deposited data

How the results depend on the processing

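Bhlhe40 and the brightest Tef probe stayed above 0 and Ciart below 0, and no member passed the adjusted threshold, under the alternatives run: over them Bhlhe40 ran from 0.44 to 1.28, Tef from 0.14 to 0.46 and Ciart from -0.41 to -0.087 (log2; lowest limma adjusted p 0.144, 0.313 and 0.398). For Ciart the wild-type arrays alone met the detection filter, so its sign is not independent of its being kept. Dbp ran from -0.049 to 1.50 (lowest adjusted p 0.242), and its sign turned, at -0.049, without wild-type arrays 1 and 2, which leaves array 3 as the lone wild-type sample, assumed to vary like the transgenic ones. Leaving out single arrays gave 0.59 to 1.50 for Dbp, 0.72 to 1.28 for Bhlhe40, 0.26 to 0.46 for Tef and -0.41 to -0.16 for Ciart. With the replicate block on 6 arrays the differences were 0.94 for Dbp, 0.96 for Bhlhe40, 0.34 for Tef and -0.26 for Ciart, with no member called and 15 probes called in all; on averaged samples the replicate block called 1. Hlf and Bhlhe41 have no kept probe and Nfil3 no named one, so no alternative was run on them.

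Called probes numbered 1 (0 higher, 1 lower) as reported. Counting the 6 arrays separately gave 55 (21 and 34), and a random block for the RNA sample 13 (5 and 8). Changing the values gave 9 (3 and 6) at offset 50, 8 (3 and 5) on uncorrected intensities, 3 (1 and 2) on median-centred ones and 7 (2 and 5) on the authors' log2 values. An intensity trend gave 10 (3 and 7), and a threshold of 0.10 gave 3 (1 and 2). Requiring detection on all 6 arrays gave 0 by limma (916 of those probes had an unadjusted p under 0.05), since Ucp1 is then not tested. Without transgenic arrays 1 and 2 it was 18 (1 and 17), and without single arrays 1 to 8, the 8 without transgenic array 3. No kept gene of the clock, output, bZIP, HES and hypoxia lists was called in any of these. The cause of these shifts was not tested.

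Of 33 other named genes and probes, 22 moved by over 1.5 times when a single array was left out. Pck1, Ankrd2, Casq2 and the genes named outside the naming rule, except Per3, were not among these 33. Other signs turned as follows. Without wild-type arrays 1 and 2 Arntl was 1.08, Per1 0.16, Per2 -0.10, Per3 -0.43, Nr1d1 0.039, Fkbp5 0.25 and Ddit4 0.44, and Nr1d1 was 0.062 without transgenic arrays 1 and 2. Leaving out single arrays, Arntl ran from -1.24 to 0.044, Rora from -0.051 to 0.24 and Tnni1 from -2.57 to 0.25, each turned by transgenic array 3, and Per1 from -0.35 to 0.0046 and the dimmest Tef probe from -0.47 to 0.030, both turned by wild-type array 1. Of 656 values of other named genes and probes under the alternatives, 13 changed sign and 12 passed the threshold where the reported setting did not, 11 of them for Cidea. Of 320 list medians, 20 moved by more than the spread between samples.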
